A study of Mus musculus with 8 samples.

Results

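NKp46 (gene Ncr1), CD16 (Fcgr3), the adaptor chains FcR gamma (Fcer1g), DAP12 (Tyrobp) and DAP10 (Hcst), and the adhesion receptor CD2 (Cd2) were described by the open chromatin around their 6 genes in resting splenic natural killer (NK) cells. Members were chosen by name. A peak belonged to a gene if that gene had the protein-coding gene end nearest to the midpoint of the peak, up to 50 kb away in the mouse build mm10. These 6 of 21887 protein-coding genes took between 30 and 35 peaks in each library, out of 42695 to 49627. Merged over the libraries at an overlap of at least 1 bp, the peaks gave 38 regions among 50044 regions seen in at least 2 libraries.

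The assay was ATAC-seq: a transposase cuts accessible DNA and leaves sequencing adapters at the cuts. The WT group was 4 mice with wild-type HSF1, the transcription factor that drives heat shock genes. The MUT group was 4 mice with the S303/7A form of HSF1, which has alanines at residues 303 and 307 where the wild type has serines. All mice were at steady state, each library came from 200000 CD49b+ CD3e- spleen cells of a different mouse, and the labels used here give no strain, age or sex. Values of WT are given below for replicates 4, 5, 6 and 7 and values of MUT for replicates 26, 27, 28 and 29, in this order.

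NK cells read antibody-coated and stressed cells through receptors that mostly lack signalling motifs of their own. CD16 binds the constant part of IgG and signals through FcR gamma, and NKp46 pairs with FcR gamma or the CD3 zeta chain. FcR gamma and DAP12 carry immunoreceptor tyrosine-based activation motifs (ITAMs), which recruit the kinases SYK and ZAP70 once phosphorylated. DAP10 carries a different motif that recruits phosphoinositide 3-kinase and GRB2 and serves the receptor NKG2D. CD2 binds CD48 in mice and strengthens contact with the target cell.

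The bases before the transcript start are shown for the 4 genes with an entry in the RefSeq promoter table (GRCm38.p6), since the peaks over these starts ranked very differently within their lists. Tyrobp and Cd2 had no entry. Each line gives the 250 bases before the start, 5′ to 3′ on the strand of the gene, with matches to the searched motifs in capitals.
Ncr1 (chr7:4337465-4337714, plus strand): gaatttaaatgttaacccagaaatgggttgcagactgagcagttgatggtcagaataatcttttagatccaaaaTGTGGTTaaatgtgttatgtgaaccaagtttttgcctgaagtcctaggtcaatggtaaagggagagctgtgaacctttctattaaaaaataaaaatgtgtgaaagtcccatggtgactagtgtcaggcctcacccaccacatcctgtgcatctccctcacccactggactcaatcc
Fcgr3 (chr1:171059404-171059653, minus strand): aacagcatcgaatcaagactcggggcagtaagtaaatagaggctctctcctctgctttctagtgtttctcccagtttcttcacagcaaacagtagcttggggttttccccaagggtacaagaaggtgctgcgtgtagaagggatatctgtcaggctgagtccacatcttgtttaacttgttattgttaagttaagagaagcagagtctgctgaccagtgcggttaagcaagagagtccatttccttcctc
Fcer1g (chr1:171234350-171234599, minus strand): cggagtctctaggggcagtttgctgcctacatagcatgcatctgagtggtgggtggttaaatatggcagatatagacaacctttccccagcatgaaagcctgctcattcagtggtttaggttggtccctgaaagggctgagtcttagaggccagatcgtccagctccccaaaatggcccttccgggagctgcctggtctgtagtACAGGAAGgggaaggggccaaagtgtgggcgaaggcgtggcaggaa
Hcst (chr7:30419855-30420104, minus strand): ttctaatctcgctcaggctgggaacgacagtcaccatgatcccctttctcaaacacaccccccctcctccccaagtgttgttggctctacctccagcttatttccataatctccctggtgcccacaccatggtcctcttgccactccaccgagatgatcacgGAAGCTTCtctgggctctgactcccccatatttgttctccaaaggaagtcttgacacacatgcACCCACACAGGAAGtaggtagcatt

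Peaks covered all 250 bases of the Ncr1 window in every library. They covered 210 to 238 bases at Fcer1g, 192 to 224 bases at Fcgr3 and 157 to 175 bases at Hcst. All 4 starts therefore lay in called open chromatin in 8 of 8 libraries.

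The windows of the 4 genes held few matches. Ncr1 held the RUNX motif TGTGGTT from 176 to 170 bases before the start, a word that 3.83% of 20997 windows of protein-coding genes held on either strand. Fcer1g and Hcst each held the ETS motif ACAGGAAG, at 46 to 39 and at 19 to 12 bases before the start, against 2.63% of all windows. Hcst also held GAANNTTC, the core of a heat shock element (88 to 81 bases before the start, 6.20% of windows), and the looser RUNX form TGTGGNT on the opposite strand (25 to 19 bases before the start, 15.2% of windows). The TGTGGNT match shares a base with the ETS match, and at Ncr1 TGTGGNT and TGTGGTT are the same match. No window of the 4 held the other ETS form searched (CCGGAAGT) or the T-box motif AGGTGTGA. The shorter T-box motif GGTGTGA was not found either. The same held for the motif of SP1 and KLF factors, which is GGGCGG. It held for the AP-1 motif, written TGANTCA here, and for the STAT motif TTCNNNGAA. Neither the TATA box (searched as TATAAA) nor the cyclic AMP response element (searched as TGACGTCA) was found. The shares of all windows with these words ran from 1.0% for AGGTGTGA to 43.0% for GGGCGG. GC content was 41.6% at Ncr1, 46.0% at Fcgr3, 52.4% at Hcst and 54.8% at Fcer1g, against a median of 55.6% over all windows.

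At the starts, the rank of the peak differed widely between the genes. The score is the authors' own unnamed value per peak, given here as a percentile within its own list, so that 100 is the strongest peak of that library. Peaks over the Ncr1 start stood between 92.0 and 96.6, at or above 77.7% to 91.9% of all peaks over transcript starts in their libraries. Peaks over the Fcer1g start stood between 55.0 and 63.9. Those over the starts of Hcst (17.1 to 27.1) and Fcgr3 (at most 30.1) were weak. In every library, at most 5.81% of the peaks over transcript starts were as weak as or weaker than the Fcgr3 peak, and at most 5.36% were as weak as or weaker than the Hcst peak. The median over all start peaks lay between 77.9 and 80.7 in the 8 libraries, and 47.8% to 49.6% of 17492 starts had a peak.

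**Figure D1:**
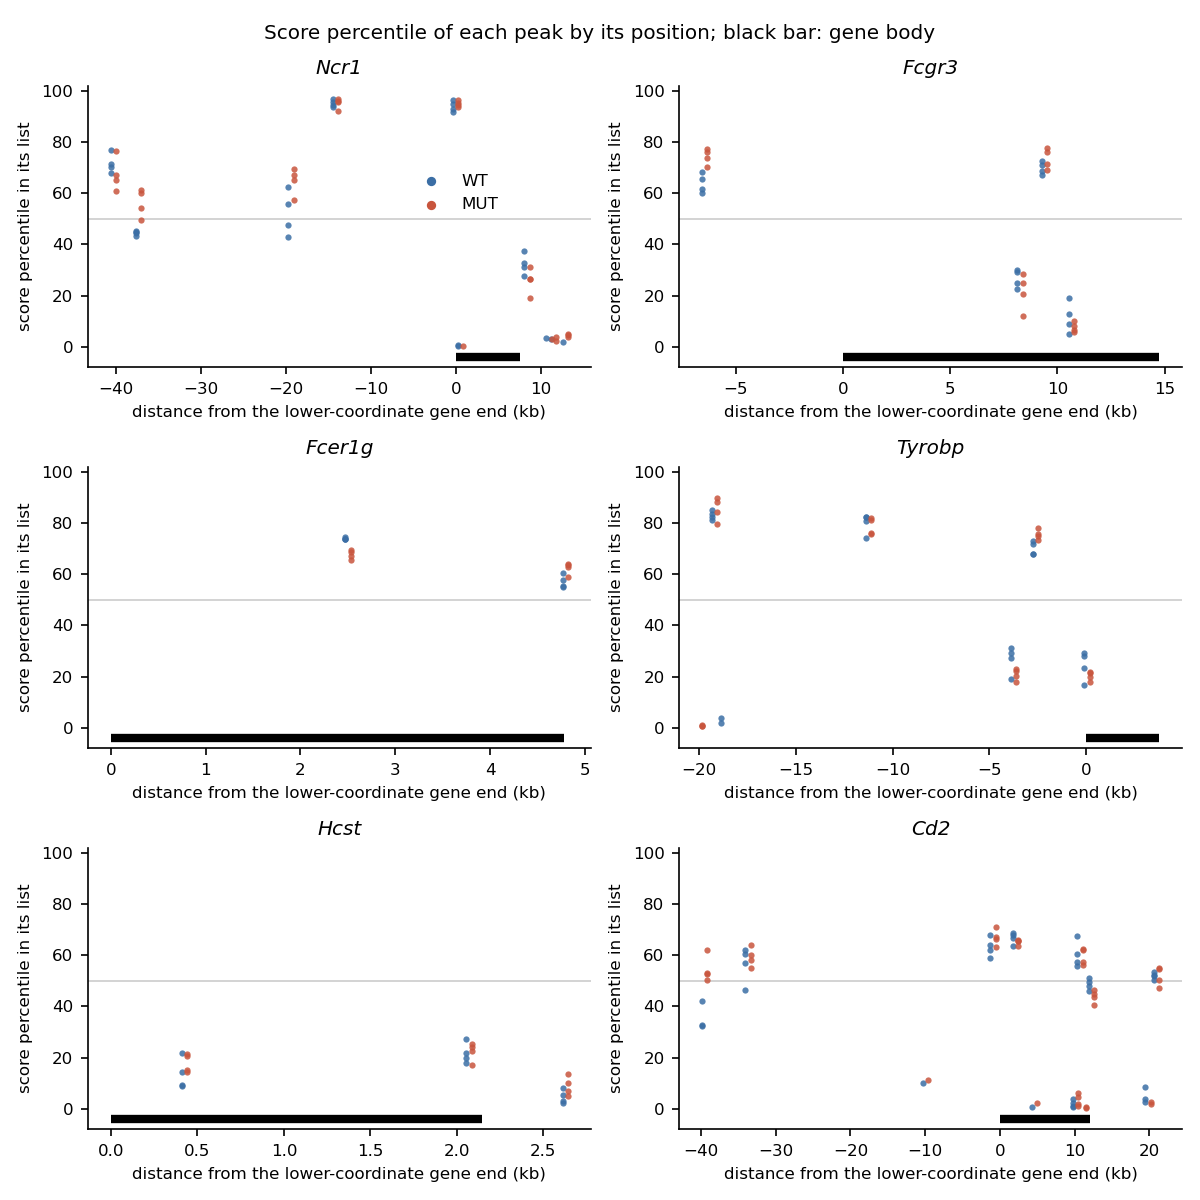
Score percentile within its own list (vertical axis) of the peak of each library in every merged region of the 6 genes. Where a library had several peaks in a region, the highest percentile is drawn. The horizontal axis is the distance in kb of the region from the lower-coordinate end of the gene. Each point is 1 library (WT blue, MUT red, drawn side by side), and the black bar is the gene body. The Ncr1 regions at the start and at 14.2 kb upstream sit above 90, while the peaks over the ends of Tyrobp and Hcst sit below 30.

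The receptor genes come first. Ncr1 (chromosome 7, 4337715 to 4345184, plus strand) had 10 regions, of which 6 were called in all 8 libraries. Its strongest regions were the start (4337356 to 4337974) and a region 14.2 kb upstream (4323189 to 4323906). The upstream region had percentiles of 95.9, 96.9, 94.5 and 93.7 in WT and 97.0, 95.6, 92.4 and 96.1 in MUT. Further upstream lay regions at 19.4 kb (4317960 to 4318640), 37.4 kb (4300058 to 4300600) and 40.3 kb (4297235 to 4297593). The next gene on that side, Lilra5, ends 94.0 kb from Ncr1, and these links rest on distance alone. A weaker region called in all 8 libraries lay 8.4 kb downstream of the start, just past the gene (percentiles 19.1 to 37.5). The other 4 regions were called in 2 to 4 libraries and never stood above the 4.77 percentile.

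Ncr1 was the gene of the 6 with the lowest p in the comparison of the genotypes, and it did not pass. The summed length of its peaks was 2756, 2644, 3097 and 2924 bp in WT and 3188, 4007, 3303 and 3292 bp in MUT. All 4 MUT libraries lay above all 4 WT libraries, which held for 3.05% of the 14255 genes tested (6.76% had separate groups in either direction). The means were 2855 ± 198 bp and 3448 ± 377 bp (SD, n = 4 each), a ratio of 1.21. The log2 difference was 0.22 (SE 0.0674) and missed the threshold (limma, unadjusted p = 0.012, adjusted p = 0.277). Lengths in bp are as deposited, while log2 differences were taken after each library was scaled to the median total, so the sign of a small difference can differ between them. Log2 values of lengths are on the scale of log2(scaled bp + 200), which understates changes of genes with little length. Of all genes tested, 11.2% had an unadjusted p under 0.05.

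By the means, the Ncr1 difference came in nearly equal parts from regions called in every library and from very weak regions called in some. Of the 592 bp between the means, 302 bp came from the former 6 regions and 290 bp (49.1%) from the latter 4. Among the 6, the regions at 37.4 and 19.4 kb upstream gave 91.5 and 135 bp, and the 2 strongest, at 14.2 kb and at the start, gave 69.5 and 21.5 bp. The main part of the latter was a region 12.8 kb downstream of the start (4350324 to 4350795), which was called in WT replicate 7 and in MUT replicates 26, 27 and 29. MUT replicate 27, with the longest list (49627 peaks), held peaks of 334, 488 and 324 bp in these weak regions. MUT replicate 26 held 354 bp, replicate 28 held 224 bp, and replicate 29 had peaks of 209 and 324 bp. The weak part therefore rests largely on 1 library. With the gene body and 5 kb on either side in place of the nearest-gene rule, which leaves out the far upstream regions and the region at 12.8 kb downstream, the log2 difference was 0.053 (limma, adjusted p = 0.921). With linking up to 10 kb, which leaves out the far upstream regions alone, it was 0.26 (limma, adjusted p = 0.722). With equal numbers of peaks from each list it was 0.12 (limma, adjusted p = 0.580), and the groups overlapped in all 3 settings. With the upper 50% of each list it was 0.48 (limma, adjusted p = 0.187), without overlap. That cut kept the region at 37.4 kb in 0 WT and 3 MUT libraries and the region at 19.4 kb in 2 WT and 4 MUT libraries. Regions that stood near the cut therefore enter this value by being kept or dropped.

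Among the single regions, those at 37.4 and 19.4 kb upstream of Ncr1 were wider in every MUT library than in any WT library. The region at 37.4 kb was 396, 437, 381 and 365 bp wide in WT and 529, 498, 473 and 445 bp wide in MUT (log2 difference of width 0.27, SE 0.0714, limma, unadjusted p = 0.00464, adjusted p = 0.293). Its far edge (the lower coordinate) lay 22 bp further out in MUT by the medians, and its near edge 64 bp further out. The region at 19.4 kb was 411, 447, 421 and 328 bp wide in WT and 502, 506, 681 and 458 bp in MUT (log2 0.38, SE 0.129, limma, unadjusted p = 0.0170, adjusted p = 0.413). Both its edges lay further out, by 51.5 and 36 bp. Separate groups with wider MUT peaks were found for 2.11% of the 34461 regions called in all libraries (5.99% in either direction), and neither region passed. Widths at the start were 541, 556, 567 and 578 bp in WT and 581, 561, 608 and 578 bp in MUT, and the groups overlapped.

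The score percentiles of the 37.4 kb region did not overlap between the genotypes either. They were 44.6, 45.1, 44.7 and 43.2 in WT and 60.0, 61.3, 49.6 and 54.2 in MUT. At 19.4 kb they were 47.5, 55.7, 62.6 and 42.8 in WT and 67.3, 69.5, 65.3 and 57.5 in MUT, with overlap. Percentiles of the genotypes did not overlap, in either direction, at 12.8% of all regions called in every library and at 4 of the 27 such member regions. Percentiles come from lists of different lengths, so they describe each list and show no change between libraries.

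**Figure D2:**
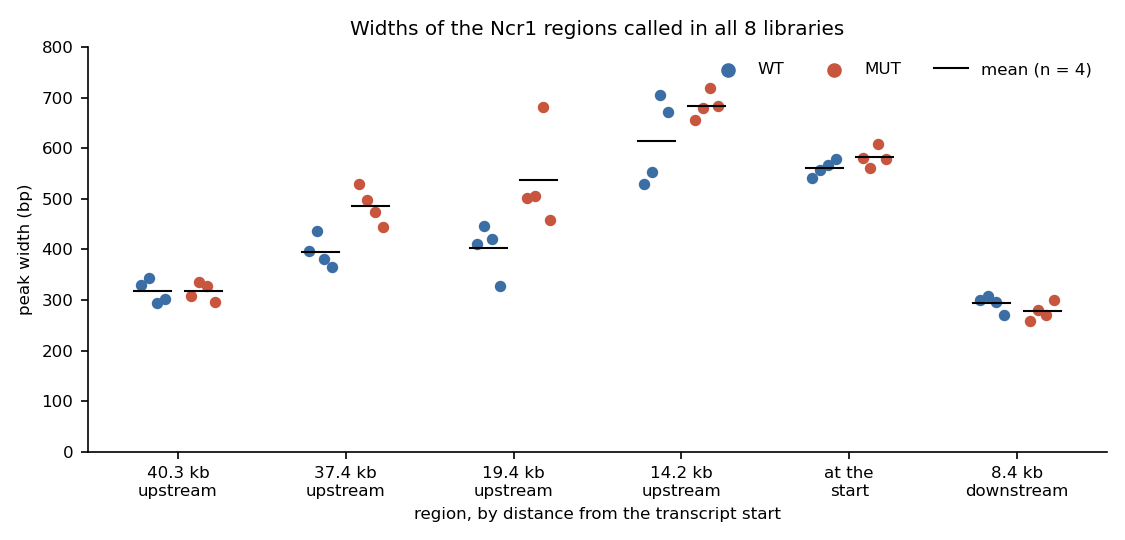
Peak width in bp (vertical axis, from 0) of the 6 Ncr1 regions called in all 8 libraries, ordered by distance from the transcript start (horizontal axis). Points are libraries and bars are means (n = 4). WT and MUT points do not overlap at 37.4 and 19.4 kb upstream and do overlap at the other 4 regions.

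Fcgr3 (chromosome 1, 171051169 to 171065915, minus strand), the mouse gene for CD16, had 4 regions, all in 8 of 8 libraries. The start in the promoter table lies inside the annotated span of the gene, so its peak counted as 6.5 kb from a gene end. The peak over that start was weak (171059210 to 171059627). A stronger region 1.2 kb upstream of the start (171060242 to 171060874) had percentiles of 71.1, 72.8, 68.8 and 67.3 in WT and 69.0, 77.6, 71.6 and 76.2 in MUT, above the start peak in every library. A region 14.7 kb downstream of the start, beyond the gene (171044242 to 171045178), was the widest of the 4 at 771 to 907 bp. Its percentiles were 61.6, 65.8, 60.3 and 68.5 in WT and 70.3, 76.3, 73.9 and 77.2 in MUT, without overlap, while its widths overlapped. Such separation of percentiles, in either direction, was found at 12.8% of all regions called in every library.

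Linked length at Fcgr3 was 2088, 1927, 1948 and 2013 bp in WT and 2067, 1900, 1977 and 1774 bp in MUT. The groups overlapped, and the log2 difference of -0.08 (SE 0.0582) did not pass (limma, adjusted p = 0.651). Each library had 4 peaks there, so the differences came from widths. The region 2.4 kb upstream of the start (171061672 to 171061988) had the lowest p of the 4, with widths of 278 ± 35.9 bp against 249 ± 29.6 bp (WT against MUT, SD, n = 4; limma, adjusted p = 0.601).

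The adaptor genes were compact loci. Fcer1g (chromosome 1, 171229572 to 171234349, minus strand), which encodes the ITAM chain used by CD16 and NKp46, had 2 regions. The region over the start (171234145 to 171234587) was 368, 383, 406 and 411 bp wide in WT and 434, 434, 427 and 397 bp in MUT. A stronger region lay inside the gene, 2.3 kb downstream of the start (171231707 to 171232436). Its percentiles were 74.7, 73.7, 73.9 and 73.9 in WT and 67.0, 68.8, 69.5 and 65.7 in MUT, which did not overlap, while its widths of 632 to 725 bp and 641 to 653 bp did. Percentiles were separate, in either direction, at 12.8% of all regions called in every library.

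Linked length at Fcer1g was 1000, 1108, 1058 and 1075 bp in WT and 1075, 1084, 1068 and 1050 bp in MUT. The MUT values lay within the range of WT. The log2 difference after scaling was -0.022 (SE 0.0537, limma, adjusted p = 0.908), and without scaling it was 0.011.

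Tyrobp and Hcst, the genes of DAP12 and DAP10, lie next to each other on chromosome 7 with 129 bp between their ends (Tyrobp 30413782 to 30417582, Hcst 30417712 to 30419854). No region covered the gap between them. Tyrobp had 7 regions, 5 of them in all 8 libraries, and all but the one at its lower end lay outside the gene on the lower-coordinate side. Hcst, with the gene Nfkbid 1876 bp beyond it, had 3 regions in all 8 libraries.

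The strongest Tyrobp regions were not at the gene. A region 19.2 kb from its lower end (30394273 to 30394886) stood at 81.3, 83.7, 82.5 and 85.3 in WT and 79.8, 84.3, 89.8 and 88.2 in MUT. A region at 11.2 kb (30402119 to 30402947) stood between 74.1 and 82.6. A region at 2.6 kb (30410896 to 30411483) stood at 71.9, 68.1, 68.1 and 73.1 in WT and 78.2, 73.3, 75.1 and 75.9 in MUT, without overlap (12.8% of all regions called in every library, either direction). The peak over the lower gene end (30413607 to 30414064) had 16.8, 23.4, 28.0 and 29.2 in WT and 21.8, 21.5, 19.9 and 17.8 in MUT. The median over all peaks within 1 kb of a gene end was 68.1 to 72.2 in the 8 libraries.

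Linked length at Tyrobp was 2530, 2830, 2450 and 2704 bp in WT and 2601, 2904, 2707 and 2222 bp in MUT. The genotypes overlapped (log2 -0.051, SE 0.0566, limma, adjusted p = 0.791). The lowest library, MUT replicate 29, had a peak of 414 bp at 11.2 kb where the others had 633 to 809 bp. A very weak region beyond the one at 19.2 kb (30393628 to 30393925) was called in 3 MUT libraries and no WT library, at percentiles of 0.704 to 0.939. Another at 18.7 kb (30394952 to 30395159) was called in 2 WT libraries and no MUT library, at 1.84 and 3.69.

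All 3 Hcst regions were weak. The peak inside the gene near the Tyrobp side (30417986 to 30418292) stood between 8.90 and 21.7, and a peak 0.5 kb upstream of the start (30420211 to 30420465) between 2.31 and 13.4. Linked length was 841, 866, 919 and 979 bp in WT and 853, 1007, 1021 and 1006 bp in MUT. MUT replicate 26 lay among the WT libraries and the other 3 above them. The log2 difference of 0.056 (SE 0.0759) did not pass (limma, adjusted p = 0.83). It turned to -0.086 when all peaks within the gene and 5 kb around it were counted, a stretch that also takes in peaks of Tyrobp and Nfkbid. With the upper 50% of each list Hcst had no linked peak in enough libraries to be tested.

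Cd2 (chromosome 3, 101275908 to 101287939) had the most regions, 12, with 7 in all 8 libraries. The next genes lie 164.2 and 88.7 kb away, so the full 50 kb counted on the lower side and slightly less on the upper side. Peaks near its lower end (101274658 to 101275243, percentiles 58.9 to 71.2) and in its body (101277703 to 101278238, 63.5 to 68.7, and 101286344 to 101286895, 56.0 to 67.7) ranked higher than the peak over its upper end (101287819 to 101288408, 40.4 to 51.3) in every library. A broad region 8.9 kb past the upper end (101296003 to 101297670) held 1376, 1432, 1647 and 1563 bp of peaks in WT and 1524, 1660, 1658 and 1574 bp in MUT.

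Linked length at Cd2 was 4922, 5237, 5566 and 4571 bp in WT and 5311, 5764, 5186 and 5158 bp in MUT. The groups overlapped (log2 0.039, SE 0.0545, limma, adjusted p = 0.836). The lowest library, WT replicate 7, had no peak in the region 39.5 kb from the lower end (101236103 to 101236705), where the other 7 had 320 to 439 bp. In that region the percentiles were 42.3, 32.7 and 32.4 in the 3 WT libraries with a peak and 52.5, 53.0, 50.3 and 62.1 in MUT. With the upper 50% of each list it was thus called in 4 MUT and 0 WT libraries (Fisher's exact test, unadjusted p = 0.0286, adjusted p = 1), and with all peaks in 4 and 3. An unadjusted p under 0.05 was found for 1.1% of the regions of the shortened lists. Depth is unknown for these lists, so a missing peak is a peak that was not called.

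**Figure D3:**
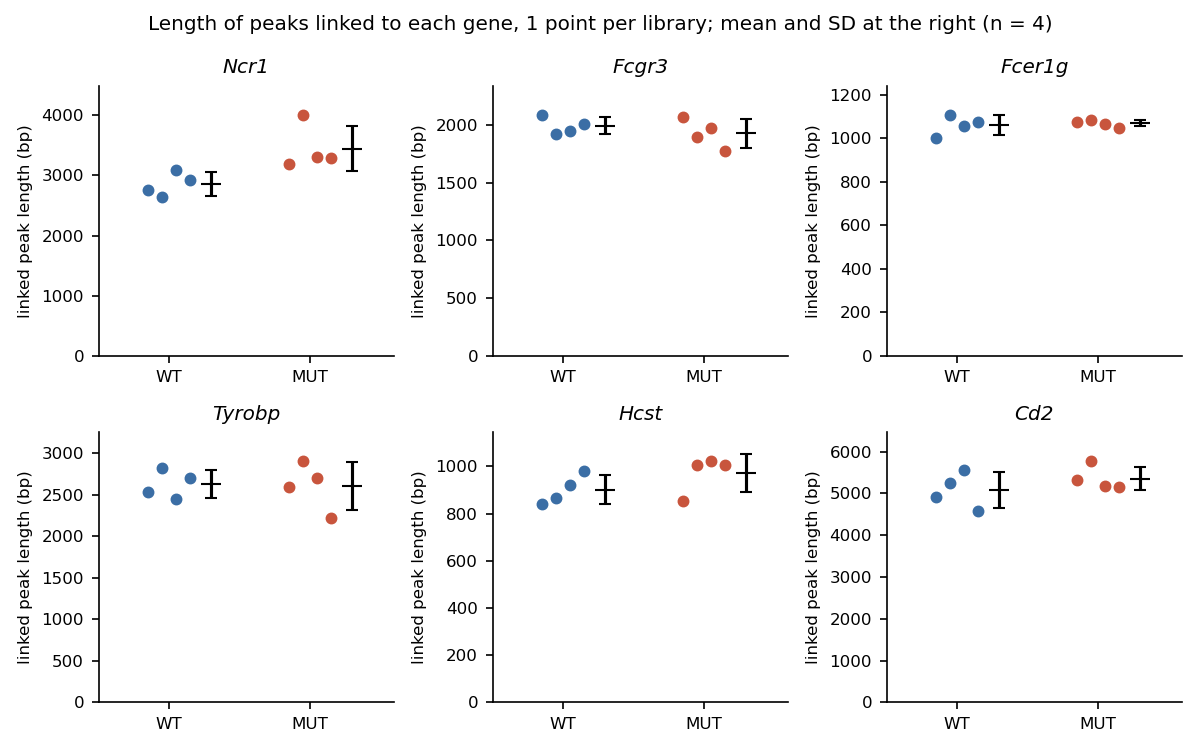
Summed length in bp (vertical axis, from 0) of the peaks linked to each of the 6 genes. Points are libraries (WT blue, MUT red), with the mean and SD of each genotype at their right (n = 4). The MUT points lie above the WT points at Ncr1 and overlap them at the other 5 genes.

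None of the 6 genes passed the limma test of linked length over all genes, where 0.673% of genes did. Of the 6, 1 gene, Ncr1, had an unadjusted p under 0.05, which 11.2% of all genes had. The members' log2 differences were above 0 for 3 and below 0 for 3, while 42.1% of all genes tested lay above 0. The median of the members was 0.008, against a median of -0.019 over all genes tested. Among the 27 member regions called in all libraries, 0 passed the limma test of width, which 0.0783% of all such regions did. The 2 regions upstream of Ncr1 had an unadjusted p under 0.05, which 9.69% of all regions had. The median log2 difference of width was -0.023 over the 27 regions and -0.018 over all. Fewer cells with an open region and less opening per cell cannot be told apart in these bulk samples.

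Calls were mostly shared. Of the 38 member regions, 71.1% were called in all 8 libraries, against 68.9% of all regions. By Fisher's exact test 0 of the 38 had an adjusted p under 0.05, as did 0% of all regions, and 0 had an unadjusted p under 0.05 (0.761% of all regions). The smallest unadjusted p among the 38 was 0.143, at the Tyrobp region called in 3 MUT libraries. With 4 libraries against 4, the smallest p that Fisher's exact test allows is 0.0286, too large to pass the adjustment over all regions. The adjusted result was therefore fixed in advance. Of the 11 regions not called everywhere, 10 never stood above the 11.2 percentile, and the exception was the Cd2 region at 39.5 kb. In the upper 50% of its list a region was found in all 8 libraries for 13 regions, in none for 19 and in some for 6.

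Per length of DNA, the compact loci held the most open chromatin. The stretch in which a gene had the nearest end, within 50 kb, was 3.1 kb for Hcst, 6.6 kb for Fcer1g, 29.4 kb for Tyrobp, 49.4 kb for Fcgr3, 63.3 kb for Ncr1 and 106.4 kb for Cd2. Peak length per kb of this stretch was 287 ± 19.5 bp in WT and 309 ± 25.3 bp in MUT at Hcst (SD, n = 4 each). It was 160 ± 6.82 and 161 ± 2.17 bp at Fcer1g and 89.5 ± 5.83 and 88.8 ± 9.76 bp at Tyrobp. Ncr1 (45.1 ± 3.13 and 54.4 ± 5.95 bp), Cd2 (47.7 ± 4.01 and 50.3 ± 2.64 bp) and Fcgr3 (40.3 ± 1.47 and 39.0 ± 2.51 bp) followed. Ncr1 and Cd2 did not differ beyond their spread. The median of all genes tested was 24.0 bp per kb, and short stretches between close gene ends raise this measure.

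By the pattern of log2 length over the 8 libraries, the genes most like each member were Plcl2 for Ncr1 (Pearson r = 0.975), Hpdl for Fcgr3 (0.976), Dync1h1 for Fcer1g (0.955), Usp6nl for Tyrobp (0.951), Ice2 for Hcst (0.968) and Cchcr1 for Cd2 (0.972). Each is the highest of 13724 genes over only 8 libraries, which differ in list length and whose depth is unknown. The values describe these libraries.

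The other genes of these pathways were taken from a list of 39 genes, of which 38 were tested (all but Trem1) and 35 had a linked peak in all 8 libraries. Past the limma threshold, Klrc2, Klrb1c and Cd48 were lower in MUT and 0 genes were higher, while 0.673% of all genes passed. Without regard to the threshold, 18 of the 38 genes lay above 0 and 20 below, while 42.1% of all genes tested lay above 0. Klrc2 encodes NKG2C, a receptor that uses DAP12, and fell from 738 ± 127 to 50 ± 100 bp (SD, n = 4; limma, adjusted p = 0.0150), with 1 of 4 MUT libraries holding a linked peak. Klrb1c encodes NK1.1, which uses FcR gamma, and fell by 0.27 on the log2 scale (SE 0.0407, limma, adjusted p = 0.0313). Cd48, the ligand of CD2, fell by 0.56 (SE 0.0730, limma, adjusted p = 0.0211). The calls depended on the setting: by limma, none of the list genes tested passed with the upper 50% of each list and without WT replicate 4 or WT replicate 5, and 1, Klrc2, passed without WT replicate 7, without scaling and with the gene body and 5 kb on either side. Without MUT replicate 28, Klrc2 and the scaffold gene Lat passed, the latter higher in MUT (log2 0.46, limma, adjusted p = 0.0355, against 0.33 and 0.338 with all libraries). The sign turned for Klrb1c when the weaker 50% of each list was dropped (log2 0.55), and for Cd48 when only the gene body and 5 kb on either side counted (0.057).

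By role, 2 of 7 receptors that pair with these adaptors and 1 of 4 genes of CD2 partners passed the limma threshold, lower in MUT. Below 0 were 6 of these 7 receptors and 4 of these 4 partners, while 42.1% of all genes tested lay above 0. Of the partners, only Cd48 lay more than 1 SE from 0. No gene passed among 5 other Fc receptors, 6 kinases, 11 scaffolds and effectors, 4 negative regulators and the ITAM chain gene Cd247 (log2 -0.003, limma, adjusted p = 0.990). The largest differences among the genes that did not pass were -0.45 at Klra8, whose product Ly49H uses DAP12 (limma, adjusted p = 0.155), -0.36 at Trem2 (limma, adjusted p = 0.781) and 0.34 at Fcgr1 (limma, adjusted p = 0.380). The median over the 38 genes was -0.013. In the Fc receptor cluster next to Fcgr3, the linked length of Fcgr4 was 1527 ± 271 bp against 1418 ± 320 bp (WT against MUT, SD, n = 4; limma, adjusted p = 0.783). Fcgr2b, the inhibitory receptor gene, had 2800 ± 213 against 3352 ± 247 bp, without overlap (limma, adjusted p = 0.182). Separate groups, in either direction, were found for 7 of the 38 list genes and for 6.76% of all genes tested. Of all genes tested, 3.05% had separate groups with higher values in MUT.

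**Figure D4:**
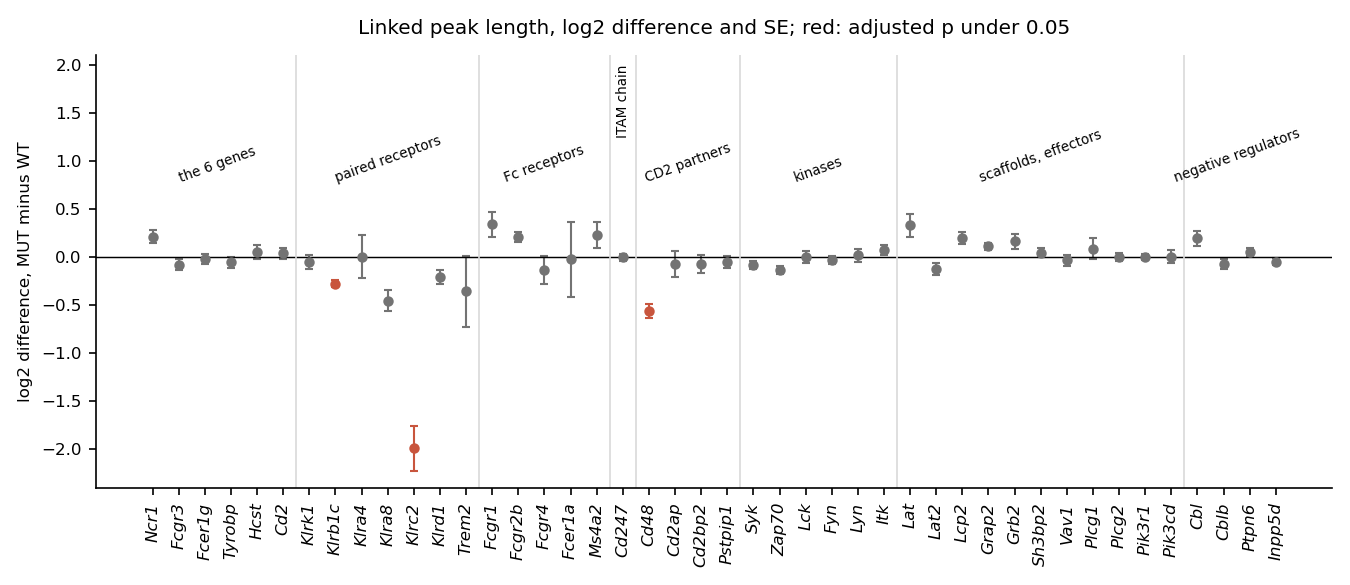
Log2 difference of linked peak length, MUT minus WT (vertical axis), with its SE, for the 6 genes and 38 genes of the pathway list grouped by role (horizontal axis). Red points have an adjusted p under 0.05. The red points are Klrb1c, Klrc2 and Cd48, all below 0, and the 6 genes lie between -0.08 and 0.22.

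The labelled cell type was checked by marker genes. All 9 NK marker genes had linked peaks in all 8 libraries, with a summed length of 37744 to 40645 bp in WT and 36310 to 40045 bp in MUT, and 1 of them, Klrb1c, passed. Myeloid cells also use FcR gamma, DAP12 and CD16, and basophils also bear CD49b. Of 8 myeloid markers 5 were tested (sums of 2578 to 3275 bp in WT and 2383 to 3551 bp in MUT). Csf1r, Cd14 and Cebpa had linked peaks in all 8 libraries, while Lyz2, S100a8 and Mpo had a peak in fewer than 2. Of 6 basophil and mast cell markers 5 were tested, with Prss34 left out (3613 to 4222 and 3667 to 4753 bp). Cpa3, Gata2 and Ms4a2 had linked peaks in all 8 libraries, and Fcer1a had them in 2. T cell markers summed to 3494 to 3895 bp in WT and 3909 to 5240 bp in MUT (unscaled), without overlap and with Cd4 and Cd8a untested. The highest WT and lowest MUT sums lay close together, and the sums themselves were neither scaled nor tested. The 4 T cell genes tested had linked peaks in all 8 libraries. Singly, their groups all overlapped, with log2 differences of 0.32 at Cd3e, 0.23 at Cd5, -0.047 at Cd3d and -0.038 at Cd3g. B cell markers summed to 1279 to 2131 and 1401 to 2750 bp, with Cd79a and Ms4a1 untested and Pax5 called in all 8 libraries. No gene of these 4 lists passed the limma test, and the part of such cells in the values of the 6 genes was not tested.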

How the data were processed

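Per the labels' protocols, NK cells were enriched with DX5 beads and sorted from spleen. The deposited files are 8 peak lists, 1 per library, with positions and an unnamed score that the authors gave each peak. The submitters' processing notes name mm10 (GRCm38), Bowtie2 2.3.4.1, DiffBind 3.0.12, Trimmomatic and DESeq2, without saying what each did. The sources used here name no peak caller or threshold and no shift of reads for the transposase. No reads are in the lists, so depth is unknown and no count model was run. The smallest deposited peak was 200 bp wide.

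Genes came from the RefSeq table (GRCm38.p6), which gives no strand or exons. Lengths of linked peaks were summed per gene (at least 2 libraries with a linked peak), scaled to the median library total, and tested on log2(bp + 200) with limma 3.58.1 (moderated, with trend, two-sided). Widths of regions called in all libraries were scaled by each library's median width over these regions and tested likewise. Calls were tested with Fisher's exact test. P-values were adjusted (Benjamini-Hochberg) over all features, with a threshold of 0.05. The scripts were first tested on simulated data. Versions were R 4.3.3, Python 3.11.15 and, for Fisher's test, scipy 1.17.1.

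The members, the lists and the tests were chosen with earlier results of these data known. The rule for named genes takes the 6 members with all their regions, list genes past the threshold, the 3 list genes with the largest change among the rest, and for each member the most similar gene that is not a predicted gene. Fcgr2b, Fcgr4, Cd247, Lat and the neighbouring genes were named after their values were seen. A planned search of protein motifs was not run, since protein sequences were not used here.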

Additional observations from a re-analysis of the deposited data

Results flagged for a closer look

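Values far from the others of their genotype were looked for in groups of 4 libraries, over the linked lengths of the 6 genes and the widths of the 27 regions called everywhere. Of 66 groups, 3 had a library whose gap to the nearest other passed the 95% limit of Dixon's test, which chance gives in about 1 in 20 groups. Linked length at Ncr1 was 4007 bp in MUT replicate 27, against 3188 to 3303 bp in the other MUT libraries. That library also had the longest list, with 49627 peaks. Without it, the Ncr1 log2 difference was 0.18 (limma, adjusted p = 0.427). At Hcst, MUT replicate 26 had 853 bp of linked peaks, against 1006 to 1021 bp in the other MUT libraries. The same library had a peak of 325 bp over the Hcst start, against 455 to 477 bp.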

How the results depend on the processing

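No paired analysis was possible because the genotypes share no replicate number. None of the 6 genes passed the limma test in any of the 17 alternatives run. No member region passed for width or, by Fisher's exact test, for calls, in 11 alternatives each. For calls this was fixed in advance, since the smallest p of Fisher's exact test with so few libraries could not pass the adjustment. The Ncr1 difference stayed above 0 in all 17, from 0.053 to 0.48. With 1 library left out it ran from 0.17 to 0.25. Groups separate with all 8 libraries stay separate with 1 left out, so these 8 fits tested neither direction nor separation. The widths at 37.4 and 19.4 kb upstream of Ncr1 kept their direction in the 10 alternatives that gave a value (limma, adjusted p-values of 0.297 to 0.487 and 0.411 to 0.574). Of these 10, 8 left out 1 library and likewise could not turn the direction. Signs turned for Fcer1g (0.011 without scaling, -0.051 to 0.004 with 1 library left out), Hcst (-0.086 with the gene body and 5 kb on either side), Klrb1c (0.547 with the upper 50% of each list) and Cd48 (0.057 with the gene body and 5 kb on either side). The sign also turned in some alternative for 9 of the 25 other member regions. The cause was not tested. Of the pathway list, 3 of 38 genes tested passed as reported, 1 of 38 without scaling, 0 of 33 with the upper 50% of each list (where Klrc2 had no value), 1 of 36 with the gene body and 5 kb on either side, and 0 to 2 with 1 library left out. Over all genes, 96 passed as reported. The alternatives with all 8 libraries ran from 41 (linking up to 10 kb) to 121 (equal numbers of peaks), and 22 to 80 passed with 1 library left out. How far depth limited the calls cannot be read from these lists.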
